A study of Mus musculus with 6 samples.

Results

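A set of 10 genes of retinoid absorption and retinoic acid metabolism were followed in the small intestine of mouse embryos labelled as wildtype or as a conditional knockout of E-cadherin, the adhesion molecule of epithelial adherens junctions encoded by Cdh1. The 10 genes (Rbp2, Lrat, Sdr16c5, Adh1, Aldh1a1, Aldh1a2, Dhrs3, Stra6, Crabp2 and Cyp26b1) were listed with their difference between the groups already known, and were found among 19938 measured genes by their symbol, each through its only probe set. Their differences between the groups are therefore a description, given with standard errors and intervals and without p-values. RNA of whole small intestine, taken at E18.5 just before birth, was hybridised to Affymetrix Mouse Gene 1.0 arrays. The 3 control samples carry the label wildtype, and the 3 others come from the conditional knockout of E-cadherin (cKO). The cell type or promoter that drives the deletion, the deleted exons, the age at which deletion began, the strain and whether a sample is 1 embryo or a pool do not appear in the labels or the design text.

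Vitamin A reaches the small intestine as retinol and carotenoids. In the enterocyte, retinol is held by the carrier RBP2, esterified by LRAT and exported in chylomicrons. Elsewhere, and in part in the same tissue, retinol is oxidised reversibly to retinaldehyde by alcohol and short-chain dehydrogenases, and retinaldehyde irreversibly to retinoic acid by ALDH1A enzymes. Retinoic acid is carried by CRABP proteins, acts on nuclear receptors of the RAR and RXR families and is broken down by CYP26 enzymes. In the developing gut, retinoic acid from the mesenchyme and from the mesothelium, the outer lining of the gut, patterns the tube.

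Values are the authors' expression values, read as log2 from their range, so that a difference of 1 is a 2-fold change. A gene is said to have risen or fallen where limma, fitted across all 19938 genes, gave a Benjamini-Hochberg adjusted p under 0.05. By this rule 2825 genes (14.2%) were called, 1467 lower (7.36%) and 1358 higher (6.81%). The array medians lay between 6.17 (cKO 2) and 6.50, and correlations between arrays over all probe sets lay between 0.945 and 0.974. Dim genes lay lower on cKO 2: receptor genes of smell, pheromone sensing and taste, used to gauge background, shifted there by -0.37 (median of 1227 genes, relative to the control mean) and by -0.06 to 0.09 on the other arrays. A value at or below the 95th percentile of these receptor genes on its own array, 5.79 to 6.36, is called background. The targeted gene Cdh1 stood at 9.86, 9.82 and 10.15 on the control arrays (1, 2, 3) and at 9.70, 8.38 and 8.91 on the cKO arrays (1, 2, 3), a difference of -0.95 (SE 0.31) that did not pass the threshold (limma adjusted p = 0.088; exact two-sided permutation p = 0.1, the smallest that 3 against 3 samples allow). The cKO 1 value lay 0.24 below the control mean, and without this array the Cdh1 difference was -1.30 and passed (limma adjusted p = 0.012). The labels do not say whether its probes lie in the deleted exons, so they need not report the deletion. As a list, enterocyte markers lay above background in every sample: the mean log2 level of 12 of them was 10.99 to 11.56 in controls and 9.65 to 9.98 in cKO samples. Taken singly, Treh lay at background on 2 control and 2 cKO arrays, and Slc2a2 on 1 cKO array.

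Rbp2, Lrat, Sdr16c5 and Adh1, which hold, esterify or oxidise retinol inside the cell, were lower in the cKO intestine, and Aldh1a2, which forms retinoic acid, was higher. The retinol receptor gene Stra6 and the genes of retinoic acid carriage and breakdown were not called. Of the 10 genes, 4 fell (Rbp2, Lrat, Sdr16c5 and Adh1), 1 rose (Aldh1a2) and 5 were not called, beside 14.2% called among all genes. Because the genes were chosen on this contrast, nothing is read from that share. The groups did not overlap for 7 of the 10 genes, 6 lower and 1 higher, beside 35.4% of all genes (19.3% lower and 16.0% higher). The median difference of the 10 genes was -0.33, against -0.09 over all genes. In 8 of them all 6 values lay above background. The exceptions were Sdr16c5, at background on all 3 cKO arrays, and Crabp2, at background on 1 control and 1 cKO array.

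**Figure D1:**
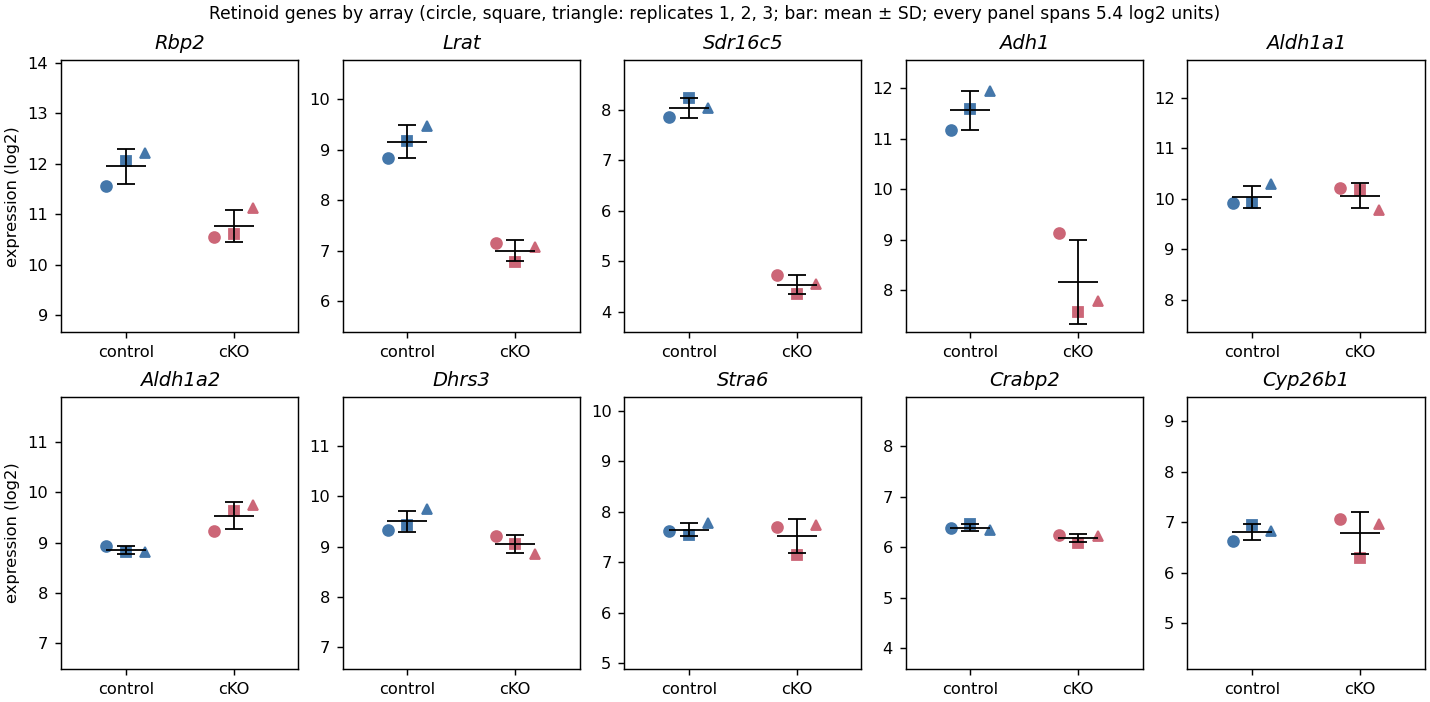
Log2 expression of the 10 retinoid genes on each array, control in blue and cKO in red, with circles, squares and triangles for replicates 1, 2 and 3, a horizontal bar for the mean and whiskers for the SD (n = 3). Each panel spans 5.4 log2 units but has its own origin, so distances and not heights can be compared between genes; Adh1 shows a gap of 2.05 between groups, Sdr16c5 lies at background in all cKO samples, and Aldh1a1, Stra6 and Cyp26b1 overlap.

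Rbp2 encodes the cellular retinol-binding protein of the enterocyte, which takes up retinol and retinaldehyde inside the cell. Its level was 11.56, 12.06 and 12.22 on control arrays 1 to 3 and 10.55, 10.60 and 11.13 on cKO arrays 1 to 3, the order used for all values that follow. Every cKO value lay below every control value, with a gap of 0.43, and cKO 3 was the least reduced. The means were 11.95 ± 0.34 and 10.76 ± 0.32 (SD, n = 3 each), a difference of -1.19 (SE 0.22, 95% interval -1.71 to -0.66) or 2.28-fold. Without control 2 or control 3 the difference was -1.13 and -1.05, and Rbp2 was no longer called.

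Lrat encodes lecithin retinol acyltransferase, which esterifies the retinol that RBP2 presents. It read 8.83, 9.18 and 9.48 in the controls and 7.16, 6.77 and 7.07 in the cKO samples. The cKO values lay close together, within 0.39, and the gap to the controls was 1.67. The control mean of 9.16 ± 0.33 fell by 2.16 (SE 0.19), or 4.48-fold, to 7.0 ± 0.20 (SD, n = 3 each). Lrat was called under all 15 alternative settings, with differences from -2.33 to -2.0.

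Sdr16c5 and Adh1 encode enzymes that can oxidise retinol to retinaldehyde: Sdr16c5 a membrane-bound short-chain dehydrogenase, Adh1 a cytosolic alcohol dehydrogenase that also clears excess retinol. Sdr16c5 was 7.85, 8.24 and 8.03 in the controls and 4.72, 4.34 and 4.55 in the cKO samples. All 3 cKO values lay at background, so the measured difference of -3.50 (SE 0.15) is not exact, and against the background level the gene was at least 4.0-fold lower. Adh1 read 11.17, 11.58 and 11.94 in the controls and 9.12, 7.56 and 7.79 in the cKO samples. The groups lay 2.05 apart, and cKO 1 stood above the other cKO samples by over 1 log2 unit. The means were 11.56 ± 0.39 and 8.16 ± 0.84 (SD, n = 3 each), so that Adh1 fell by 3.41 (SE 0.41) or 10.6-fold, a difference that stayed between -3.89 and -3.11 over the alternative settings.

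Dhrs3 encodes a short-chain reductase that turns retinaldehyde back into retinol and is itself induced by retinoic acid. It was 9.33, 9.43 and 9.74 in the controls and 9.22, 9.06 and 8.86 in the cKO samples. The groups did not overlap, but only 0.11 separated them, and the difference of -0.45 (SE 0.15, 95% interval -0.82 to -0.09) was not called. It was called under 3 of the 15 alternative settings (array weights, an intensity-dependent robust prior, and without the dimmer 50% of genes).

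Aldh1a1 and Aldh1a2 encode retinaldehyde dehydrogenases, the enzymes that form retinoic acid. In the embryo Aldh1a2 is the form of mesenchyme and mesothelium. Aldh1a2 read 8.94, 8.81 and 8.81 in the controls and 9.23, 9.63 and 9.75 in the cKO samples, so that every cKO value lay above the controls. With means of 8.85 ± 0.08 and 9.54 ± 0.27 (SD, n = 3 each), it rose by 0.68 (SE 0.16, 95% interval 0.32 to 1.05) or 1.61-fold. The smallest shift was again on cKO 1 (0.38, against 0.78 and 0.90 on cKO 2 and 3). Its call was lost without any 1 of the arrays other than cKO 1, with differences of 0.73, 0.66 and 0.66 without control 1, 2 and 3, and 0.64 and 0.58 without cKO 2 and cKO 3.

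Aldh1a1 was 9.91, 9.92 and 10.29 in the controls and 10.22, 10.18 and 9.77 in the cKO samples. The groups overlapped, with a difference of 0.02 (SE 0.17, 95% interval -0.39 to 0.42) whose sign turned over the settings (-0.11 to 0.16). Aldh1a7, a close homologue of Aldh1a1 on the same platform and named after its values were seen, differed by -0.68 (SE 0.19, limma adjusted p = 0.058; from 0.0097 to 0.19 over the settings). Whether the probe sets of these similar genes share signal was not tested.

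Stra6 encodes a membrane receptor that lets retinol enter cells from its serum carrier. It read 7.62, 7.53 and 7.78 in the controls and 7.69, 7.14 and 7.74 in the cKO samples. Only cKO 2 lay below the controls, and the difference was -0.12 (SE 0.18, 95% interval -0.54 to 0.30), from -0.23 to 0.10 over the settings. Crabp2, which delivers retinoic acid to its nuclear receptor, was dim, at 6.38, 6.46 and 6.34 against 6.24, 6.09 and 6.22. The cKO values lay 0.10 or more below the controls, but the difference of -0.21 (SE 0.11, 95% interval -0.46 to 0.04) was not called and came to -0.11 after quantile normalization. Cyp26b1, which breaks down retinoic acid, was 6.63, 6.95 and 6.83 in the controls and 7.07, 6.30 and 6.96 in the cKO samples. The groups overlapped, and the difference of -0.03 (SE 0.21, 95% interval -0.53 to 0.48) changed sign over the settings (-0.17 to 0.21).

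Among themselves, the genes differed in which cKO array stood farthest from the controls. Distance was taken along the direction of each gene's group difference. Among the 8 genes above background on all arrays the farthest was cKO 2 for 4, and the nearest was cKO 1 for 5. These counts include Aldh1a1, Stra6 and Cyp26b1, whose groups overlapped. The cKO 1 array had the highest Cdh1 of the cKO arrays, and a link to Cdh1 was not tested. Lrat and Adh1 were farthest on cKO 2, the array on which dim genes also lay lower, whereas Rbp2 was farthest on cKO 1. The mean shift of Rbp2, Lrat and Adh1 was -1.95, -2.58 and -2.23 on cKO 1, 2 and 3. The cKO values of Sdr16c5, all at background, have no order.

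The sequences just upstream of 4 of these genes are shown because Rbp2, Lrat and Adh1 were called lower and Aldh1a2 was called higher. They are the 250 bases before the annotated start, 5′ to 3′ on the strand of the gene, from RefSeq (build GRCm38.p6), which holds a window for 8 of the 10 genes. Capitals mark matches, on either strand, to 7 motifs. The core that nuclear receptors bind, retinoic acid receptors included, was searched as AGGTCA. The intestinal factors HNF4 and CDX, both regulators of enterocyte genes, were searched as CAAAGTCCA and as TTTATG. The motif of factors of the GATA family was searched as TGATAA, and the promoter box that positions transcription starts as TATAAA. The stress-responsive factor AP-1 was searched as TGACTCA, and TEAD, the partner of YAP, as GGAATG.
Rbp2, chr9:98490287-98490536, plus strand: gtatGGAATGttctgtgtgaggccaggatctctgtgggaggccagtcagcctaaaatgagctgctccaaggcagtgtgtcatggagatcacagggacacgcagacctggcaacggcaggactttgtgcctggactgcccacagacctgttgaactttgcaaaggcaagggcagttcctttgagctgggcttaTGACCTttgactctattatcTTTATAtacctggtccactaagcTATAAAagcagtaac
Lrat, chr3:82903975-82904224, minus strand: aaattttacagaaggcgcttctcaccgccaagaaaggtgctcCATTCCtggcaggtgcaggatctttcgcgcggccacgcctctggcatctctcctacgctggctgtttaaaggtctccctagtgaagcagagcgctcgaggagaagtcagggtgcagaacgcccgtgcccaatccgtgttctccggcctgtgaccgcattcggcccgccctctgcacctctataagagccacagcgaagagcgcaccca
Adh1, chr3:138277335-138277584, plus strand: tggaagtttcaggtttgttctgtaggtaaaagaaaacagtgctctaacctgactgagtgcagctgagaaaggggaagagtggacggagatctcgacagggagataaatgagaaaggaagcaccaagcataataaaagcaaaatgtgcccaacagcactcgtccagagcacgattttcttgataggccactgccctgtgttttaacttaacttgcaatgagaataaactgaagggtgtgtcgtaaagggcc
Aldh1a2, chr9:71215539-71215788, plus strand: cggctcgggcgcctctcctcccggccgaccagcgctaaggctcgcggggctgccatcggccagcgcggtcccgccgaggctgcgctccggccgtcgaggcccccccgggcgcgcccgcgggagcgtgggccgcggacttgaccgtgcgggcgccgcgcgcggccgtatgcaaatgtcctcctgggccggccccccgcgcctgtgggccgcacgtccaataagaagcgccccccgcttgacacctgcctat
The Rbp2 window held AGGTCA on the minus strand, starting 58 bases before the start, with TATAAA on the minus strand 38 bases and on the plus strand 15 bases before it, and GGAATG 246 bases before it. No match overlapped another. The Lrat window held 1 match, to GGAATG on the minus strand, and those of Adh1 and Aldh1a2 held none of the 7 motifs. Among 32851 windows of the same length, 14% held the nuclear receptor core, 12.4% the TATA box and 12.6% the TEAD motif, and the HNF4, GATA, CDX and AP-1 motifs were in 0.384%, 7.94%, 10.8% and 4.46%. A match describes these letters only, and no match says nothing about a factor.

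The rest of the retinoid pathway was described through 75 listed genes besides the 10, of which 72 were measured. Of the 72, 20 lay at background on all 6 arrays. For those genes, not called does not mean unchanged, and the medians of the lists include them. Of the 72, 11 fell (15.3%, against 7.36% of all genes) and 7 rose (9.72%, against 6.81%), with a median of -0.19 against -0.09 over all genes. Without control 2 these counts were 6 and 4. The lists were made with earlier results of these data known, so nothing is read from these shares. For the same reason the adjusted p-values given below for listed genes are no independent test.

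Of 6 measured genes of carotenoid cleavage and lipid uptake 3 fell and 0 rose, with a median of -0.58. Cd36, a scavenger receptor for fatty acids and carotenoids, read 9.76, 10.45 and 10.59 in the controls and 8.60, 8.87 and 8.98 in the cKO samples, with no overlap, and fell by 1.45 (SE 0.23, limma adjusted p = 0.0069). Bco2, a mitochondrial carotenoid-cleaving enzyme, fell by 1.33 (SE 0.30, limma adjusted p = 0.025), a call lost without control 1, 2 or 3 (adjusted p = 0.052, 0.091 and 0.068). Its value on cKO 3 lay at background, so the size of the fall is not exact. Isx, the intestinal homeobox repressor that retinoic acid induces and that limits carotenoid cleavage, was 9.08, 8.99 and 8.98 in the controls and 8.48, 8.19 and 8.01 in the cKO samples. It fell by 0.79 (SE 0.14, limma adjusted p = 0.012), a call lost without control 2 (0.054). Scarb1, a scavenger receptor that takes up carotenoids and is repressed by ISX, was named after its values were seen. It read 9.02, 8.95 and 8.86 in the controls and 9.15, 9.31 and 9.49 in the cKO samples, higher without overlap, and its difference of 0.37 (SE 0.13, limma adjusted p = 0.10) was called under 4 of the 15 alternative settings. Bco1, the enzyme that cleaves beta-carotene into retinaldehyde and a target of ISX, lay at background on all 6 arrays, so its difference of -0.12 has no use here.

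Of 6 measured retinoid carriers, 0 were called by limma, and 0 had an unadjusted p under 0.05 (median -0.19). Rbp4, the serum carrier of retinol, differed by 0.18 (SE 0.27, adjusted p = 0.70) and read 7.43 on cKO 2 against 6.38 to 6.82 on the other arrays.

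Genes that build and export retinyl esters were called lower in part. Of 11 measured genes of ester formation, hydrolysis and chylomicron assembly, 4 fell, 1 rose and 5 lay at background on all 6 arrays (median -0.39). Dgat1, an acyltransferase that forms triglycerides and can also esterify retinol, read 10.04, 10.51 and 10.65 in the controls and 9.40, 9.14 and 9.26 in the cKO samples, with no overlap, and fell by 1.13 (SE 0.18, limma adjusted p = 0.0067). Mttp and Apob, which assemble the chylomicrons that carry the esters away, fell by 0.98 (SE 0.16) and 1.16 (SE 0.20), with adjusted p = 0.0078 and 0.0091. Lipe, a lipase that can release retinol from its esters, fell by 0.69 (SE 0.19, adjusted p = 0.049). That call was lost under 9 of the 15 alternative settings (adjusted p = 0.050 to 0.15 among them, all scalings and control 2, control 3, cKO 1, cKO 2 or cKO 3 left out included). Lpl, the lipoprotein lipase of vessel walls and stromal cells, rose by 0.77 (SE 0.14, adjusted p = 0.011) from a level that lay at background in 1 control.

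The retinol dehydrogenases and retinaldehyde reductases moved in both directions. Of 21 measured genes, 4 fell, 2 rose and 15 were not called (median -0.24). The 21 genes include 6 at background on all 6 arrays. Rdh1, a retinol dehydrogenase, fell by 1.15 (SE 0.13, limma adjusted p = 0.0020) and Dhrs4, a retinaldehyde reductase, by 0.89 (SE 0.13, adjusted p = 0.0059). The cKO values of Dhrs4 lay within 0.09 of each other. Rdh14 fell by 1.15 (SE 0.22, adjusted p = 0.015), not called without control 1 or 2 (0.054 and 0.068), and Adh5, a widely expressed formaldehyde-oxidising dehydrogenase, by 0.48 (SE 0.11, adjusted p = 0.025), not called under 7 settings, among them without control 1, 2 or 3 or cKO 1 or 3 (0.084, 0.12, 0.050, 0.056 and 0.084). Rdh10, the main retinol dehydrogenase of the embryo, read 9.16, 8.77 and 9.17 in the controls and 9.78, 9.96 and 10.22 in the cKO samples. The groups did not overlap, and Rdh10 rose by 0.95 (SE 0.17, limma adjusted p = 0.011), opposite to Sdr16c5 and Adh1. Akr1b8, an aldo-keto reductase that can reduce retinaldehyde among other aldehydes, rose from background in all 3 controls (5.99, 5.68 and 5.50) to 7.75, 8.44 and 8.39, by at least 3.79-fold (limma adjusted p = 0.0010).

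Of 5 measured genes of retinaldehyde oxidation other than Aldh1a1 and Aldh1a2, limma called 0, with 2 at an unadjusted p under 0.05 (median -0.45). Among these 5 genes, 2 lay at background on all 6 arrays. Aldh1a3, the third enzyme of the class, differed by 0.28 (SE 0.14, 95% interval -0.04 to 0.61, adjusted p = 0.23) and was called with array weights (adjusted p = 0.033). Of 4 measured genes of retinoic acid breakdown limma called 0, with 0 at an unadjusted p under 0.05 (median 0.04). Among these 4 genes, 2 lay at background on all 6 arrays, including Cyp26a1, a strongly retinoic acid-induced enzyme.

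**Figure D2:**
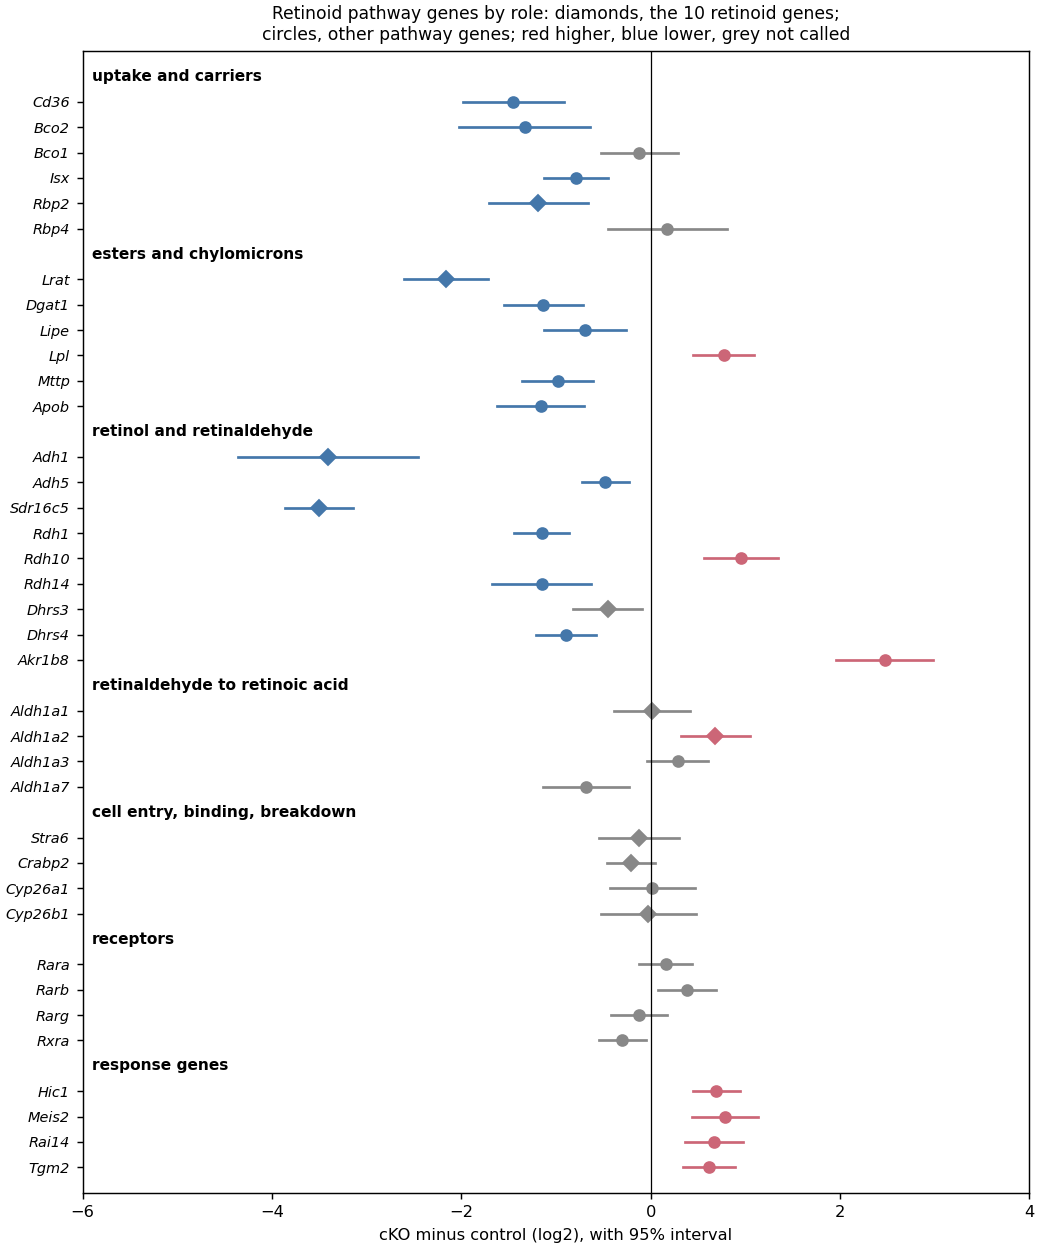
Difference between cKO and control (log2, horizontal axis, with limma's 95% interval) for the 10 retinoid genes (diamonds) and for other pathway genes named in the text (circles), grouped by role. Blue marks genes called lower, red those called higher and grey those not called; Rbp2, Lrat, Dgat1, Mttp and Apob lie to the left of zero, and Rdh10 and Aldh1a2 to the right.

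The receptors were not called. Of 8 measured genes of retinoic acid receptors and their partners, limma called 0, with 2 at an unadjusted p under 0.05 (median -0.09). Rarb, both a receptor and a direct target of retinoic acid, was 6.54, 6.55 and 6.30 in the controls and 6.75, 7.01 and 6.79 in the cKO samples. Its groups did not overlap, and its difference of 0.39 (SE 0.13, adjusted p = 0.097) missed the threshold. The Rarb value on control 3 lay at background. Rara and Rarg differed by 0.16 (SE 0.12, adjusted p = 0.44) and -0.12 (SE 0.13, adjusted p = 0.56), and Rxra by -0.30 (SE 0.11, adjusted p = 0.11). With array weights, or with the dimmer 50% of genes left out, Rxra was called lower (adjusted p = 0.046 and 0.037).

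Genes known to respond to retinoic acid did not move as 1 group. Of 14 measured genes 4 rose and 1, Isx, fell (median -0.04). Hic1, a transcriptional repressor of mesenchymal cells, rose by 0.69 (SE 0.11, limma adjusted p = 0.0063), Meis2, a homeobox factor, by 0.78 (SE 0.15, adjusted p = 0.014), Rai14, an actin-associated protein, by 0.67 (SE 0.13, adjusted p = 0.016) and Tgm2, a transglutaminase, by 0.61 (SE 0.12, adjusted p = 0.014). The calls were lost without control 2 for Meis2, Rai14 and Tgm2 (adjusted p = 0.058, 0.082 and 0.074), without control 3 for Rai14 (0.066), without control 1 for Tgm2 (0.052) and without cKO 3 for Meis2 and Tgm2 (0.055 and 0.059). Dhrs3, Stra6, Crabp2 and Cyp26b1, which also respond to retinoic acid and are described above, were not called.

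Several lists of cell type markers also differed between the groups. The samples were whole intestine, in which fewer cells of a type and less RNA per cell cannot be told apart. Of 12 measured enterocyte markers 8 fell and 0 rose (median -1.50), among them Fabp2, a fatty acid-binding protein, by 1.68 (SE 0.14, limma adjusted p = 0.00078). Beside that median, Rbp2 differed less (-1.19) and Lrat and Adh1 more (-2.16 and -3.41), whereas Sdr16c5, at background in cKO samples, has only its bound of at least 4.0-fold lower. The most negative enterocyte marker was Lct, lactase, at -3.16 (named after its values were seen). Of 11 general epithelial markers 4 rose and 3 fell (median -0.15), with the keratin gene Krt8 higher by 0.91 (SE 0.11, limma adjusted p = 0.0031). The 3 that fell, named after their values were seen, encode transcription factors of the intestinal epithelium: Hnf4a fell by 0.88, Cdx2 by 0.79 and Cdx1 by 0.60 (adjusted p = 0.018, 0.0073 and 0.021). The call of Hnf4a was lost without cKO 3 (0.065), and that of Cdx1 without control 1, 2 or 3 or cKO 3 (0.071, 0.085, 0.063 and 0.078). The mean level of the list was 10.57 to 10.85 in controls and 10.83 to 10.84 in cKO samples.

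On the side of Aldh1a2, markers of mesenchyme were higher. Of 9 measured fibroblast markers 8 rose (median 0.76; mean level 9.79 to 10.02 in controls and 10.50 to 10.70 in cKO samples), among them Pdgfra by 1.23 (SE 0.14, limma adjusted p = 0.0023). All 8 smooth muscle markers rose (median 0.87; 9.93 to 10.25 and 10.88 to 11.09), among them Des by 1.35 (SE 0.17, adjusted p = 0.0030). Of 8 mesothelium markers 4 rose (median 0.65; 6.57 to 6.83 and 7.16 to 7.65), led by Lrrn4 at 1.21 (SE 0.19, adjusted p = 0.0070), 1 lay at background on all arrays, and Wt1 and Upk3b, named after their values were seen, differed by 0.16 and -0.03 (adjusted p = 0.58 and 0.94). The sign turned without cKO 3 for Wt1, and under 3 scalings, array weights and without control 2 or cKO 1 for Upk3b. Wt1 was called higher with array weights (0.41, adjusted p = 0.044). Of 8 macrophage markers 6 rose (median 1.04), among them Cd68 by 1.05 (SE 0.12, adjusted p = 0.0020). Of 8 endothelium markers limma called 0, with 3 at an unadjusted p under 0.05 (median 0.23), Pecam1 at 0.33 (adjusted p = 0.095; called under 4 of the 15 alternative settings, at 0.032 to 0.047). On cKO 1, 2 and 3, the mean shift was 0.79, 0.60 and 0.73 for the fibroblast list, 1.0, 0.79 and 0.96 for smooth muscle, 0.44, 0.58 and 0.93 for mesothelium and 0.72, 0.93 and 0.98 for macrophages, beside 0.38, 0.78 and 0.90 for Aldh1a2. The fibroblast and smooth muscle lists were highest on cKO 1, where Aldh1a2 was lowest among cKO samples, and the mesothelium and macrophage lists were highest on cKO 3. The part that these shifts have in the differences of the retinoid genes was not tested.

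**Figure D3:**
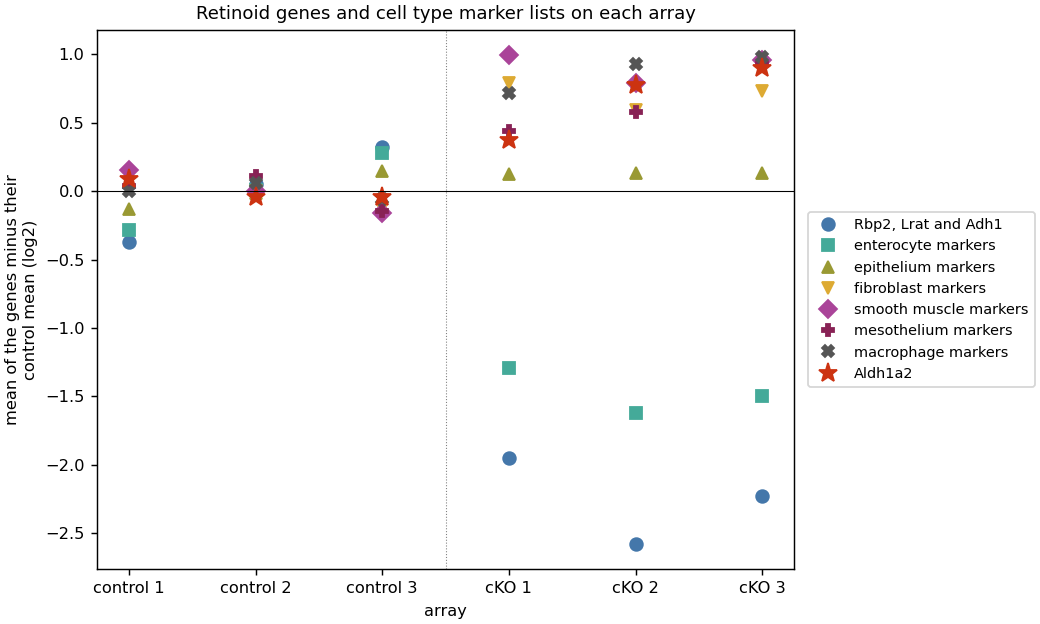
Mean deviation from the control mean (log2, vertical axis) on each of the 6 arrays for the mean of Rbp2, Lrat and Adh1, for Aldh1a2 and for lists of cell type markers. The 3 genes lie at -1.95, -2.58 and -2.23 on cKO 1, 2 and 3, below the enterocyte list at -1.29, -1.63 and -1.50. They were chosen as called lower in this contrast, so nothing is read from that order. The mean of the full retinoid gene set, called or not, was -0.87, -1.23 and -1.01, above the enterocyte list. Taken singly, Lrat and Adh1 lay below that list on every cKO array. Rbp2 lay below it on cKO 1 (-1.40) and above it on cKO 2 and 3 (-1.35 and -0.82). Aldh1a2 lies above zero, on cKO 1 below the fibroblast, smooth muscle, mesothelium and macrophage lists and on cKO 2 and 3 between them.

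By Euclidean distance over the 6 arrays of the deviations from the control mean, the genes whose pattern was nearest to that of Rbp2 were Prrx1 (distance 0.29), Olfr985 (0.33) and Defa24 (0.34). Olfr985, an odorant receptor gene, lay at background on all 6 arrays, so its likeness is not one of measured levels. Prrx1, which differed by -1.32, lay at background on 1 cKO array. Defa24, above background throughout, differed by -1.06. For Crabp2, which differed little, they were Mrps33, Recql and Recql5 (distances 0.045, 0.059 and 0.069). These are the smallest distances among all measured genes, and no shared role is read from them.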

How the data were processed

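The deposited table holds the authors' expression values for 35512 probe sets on 6 arrays, made in dChip per the series design text. Its version, background correction and normalization are not given in the labels or the file. The authors' values were read as log2 from their range (0 to about 14), since the labels name no scale, and were used as deposited. Gene symbols came from the platform annotation (21789 with 1 symbol, 1621 with several, 12102 unnamed here), with symbols updated through the gene identifier for 21698, and the brightest probe set was kept for each of 19938 genes. The 3 control and 3 cKO arrays were compared with limma 3.58.1 (lmFit, eBayes, R 4.3.3), two-sided, without covariates, with Benjamini-Hochberg adjustment at 0.05. The script was tested on simulated data. Whether samples are separate animals is not in the labels, so p-values reflect the spread of these samples alone, possibly technical. Precision is limited by the number of arrays. A bound sets the brighter group against the background level. The genes and lists were chosen with earlier results of these data known. The named genes are the 10 genes, the called genes of the pathway lists and a fixed set (Rbp4, Bco1, Isx, Rdh10, Aldh1a3, Cyp26a1, Rara, Rarb, Rarg, Rxra), the leading gene of each marker list, Cdh1 and the nearest patterns of Rbp2 and Crabp2. The background level was chosen after the data had been seen. Alternatives were 3 scalings, 2 filters on dim genes, the mean of probe sets, array weights, another prior, a replicate block and each array left out.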

Additional observations from a re-analysis of the deposited data

How the results depend on the processing

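Lrat, Sdr16c5 and Adh1 kept their direction and call under every alternative that gave a value, and Rbp2 and Aldh1a2 kept their direction. All settings reuse the arrays on which the 10 genes were chosen, so they gauge dependence on processing and are no test of these genes. Sdr16c5, Crabp2 and Cyp26b1 have no value without the dimmer 50% of genes. With array weights, 2921 genes were called higher and 2913 lower over all genes, and 11 and 20 in the wider pathway. With 1 array left out, the counts over all genes ran from 509 to 1275 higher and from 717 to 1438 lower, and in the wider pathway from 4 to 8 and from 6 to 11. The total of 2825 genes came to 1226 without control 2, 1505 without control 3 and 1517 without cKO 3. Cdh1 passed with array weights (-0.89, limma adjusted p = 0.011) and without the dimmer 50% of genes (-0.95, adjusted p = 0.044), and lay between -1.30 and -0.64 with 1 array left out, where its adjusted p was 0.012 to 0.26. Differences of uncalled genes changed sign as follows. Rbp4 was at -0.13 with array weights and -0.14 without cKO 2 (-0.14 to 0.35 with 1 array left out). Bco1 was at 0.016 with quantile normalization, 0.0074 with cyclic loess, 0.12 with array weights and 0.053 without cKO 2 (-0.27 to 0.053). Cyp26a1 was at -0.14, -0.0083 and -0.07 without control 1, control 2 and cKO 3 (-0.14 to 0.20). Wt1 was at -0.012 without cKO 3 (-0.012 to 0.29). Upk3b was at 0.013 (quantile), 0.07 (median centring) and 0.0030 (cyclic loess) with other scalings, 0.0071 with array weights, and 0.10 and 0.12 without control 2 and cKO 1 (-0.18 to 0.12). The causes were not tested. Of 135 medians of marker lists recomputed, 125 moved by less than the spread between replicates. The deviations of same-numbered control and cKO arrays correlated at -0.08, 0.13 and 0.14 for numbers 1, 2 and 3 over genes, so the numbers were not taken to pair the samples, and not every array correlated best with its own number. With the replicate block 989 genes were called higher and 1223 lower, 7 and 10 in the wider pathway, and Cdh1 differed by -0.95 (limma adjusted p = 0.064). Aldh1a2, Lipe and Adh5 were not called there.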

Other observations

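Within the control group, the retinoid genes that fell in cKO samples had nearly the same order of arrays as the enterocyte markers. All 4 were lowest on control 1, and 3 of the 4 were highest on control 3. The order was not particular to them. Of all 10 retinoid genes, 7 were lowest on control 1 and 6 highest on control 3, the uncalled Aldh1a1 and Dhrs3 among both. Of the 12 enterocyte markers, 11 were lowest on control 1 and 10 highest on control 3, and their mean deviation from the control mean was -0.29, 0.01 and 0.28 on controls 1, 2 and 3. For all 19938 genes, control 1 was the lowest in 7169 and control 3 the highest in 8428. The smooth muscle list went the other way, with 8 of 8 genes highest on control 1 and 7 of 8 lowest on control 3, as did the fibroblast list with 8 of 9 highest on control 1 and 6 of 9 lowest on control 3. These counts are a description of 3 arrays, and a link between the lists was not tested.

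Markers of neighbouring organs differed between the cKO arrays. Of 6 measured liver and pancreas markers 1 fell, Fga, a fibrinogen chain, at -1.71 (SE 0.38, limma adjusted p = 0.024; 0.070, 0.055 and 0.078 without control 2, cKO 1 and cKO 3, and called in the other settings). Fga lay at background on 2 cKO arrays, so the size of its fall is not exact. The list median was 0.42, and -0.27 without cKO 3. The pancreatic enzyme gene Cpa1, named after its values were seen, stood at 10.48 on cKO 3, the other arrays lying at 6.53 to 6.86. Cela1 and Prss2, also pancreatic enzyme genes and named after their values were seen, stood at 9.11 and 9.17 on cKO 3. On the other arrays Cela1 lay at 6.20 to 6.72 and Prss2 at 5.49 to 6.52. Ttr, which carries retinol-bound RBP4 in serum and was named after its values were seen, read 11.28, 11.05 and 9.74 in the controls and 10.18, 10.03 and 8.94 in the cKO samples, and the groups overlapped (difference -0.97, SE 0.47, adjusted p = 0.22). Of 6 measured neuron and glia markers 1 rose, Uchl1, by 0.65 (SE 0.15, adjusted p = 0.029), a call lost with the replicate block and without control 2, control 3 or any 1 cKO array (adjusted p = 0.050 to 0.12).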
